A study of Homo sapiens with 9 samples.

Results

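The genes described here are 9 basic helix-loop-helix (bHLH) transcription factors of the nervous system. They include the neurogenins NEUROG1, NEUROG2 and NEUROG3, the differentiation factors NEUROD1 and NEUROD2, and the proneural factor ATOH1. The others are the oligodendrocyte lineage factors OLIG1 and OLIG2 and the related factor OLIG3. All 9 were chosen by name from the 19974 protein-coding genes of the reference table. The accessible regions listed within a gene or within 50 kb on either side of it were counted. The regions came from ATAC-seq, in which the transposase Tn5 cuts and tags open DNA, of SK-N-MC, an established Ewing sarcoma cell line, after 48 h with 100 ng/ml doxycycline to switch on a short hairpin RNA. The groups were shScramble, the control hairpin, with the genotype given as wild type, and 2 CHD4 knockdown groups, shCHD4#1 (hairpin 1) and shCHD4#2 (hairpin 2); CHD4 is the ATPase that drives nucleosome remodelling by NuRD. Each group had 3 biological replicates, 9 samples in all, and all 3 groups received doxycycline and Drosophila spike-in cells. The deposited data used here were 3 lists of regions, 1 per group, filed under the first replicate of each group and treated as the group's combined list, which is an inference. Nothing in the lists gives the spread between replicates, the read depth or the degree of silencing, so no difference between groups was tested.

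bHLH factors bind DNA as pairs at the E-box, a short palindromic motif, and the proneural ones pair with E proteins such as TCF3, TCF4 and TCF12. Neurogenins and ATOH1 start neuronal programmes in progenitors, and NEUROD factors act later in differentiation. Among the OLIG factors, OLIG2 acts in motor neuron and oligodendrocyte progenitors, OLIG1 in myelination and OLIG3 in the dorsal neural tube. HES and HEY factors, the targets of Notch signalling, repress proneural genes, and ID proteins block bHLH factors by taking up their E protein partners.

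With shScramble, none of the 9 genes had a listed region within 1 kb of its start. With each hairpin, the same 5 genes had one: NEUROG1, NEUROG2, NEUROG3, ATOH1 and OLIG2. For OLIG1 and OLIG2, either end of the gene was taken in place of the start. Over all protein-coding genes, 60.3% of starts were covered with shScramble, 68.8% with hairpin 1 and 65.5% with hairpin 2. A start with a region in each hairpin list and none in the control list is called a hairpin-only start here. Such starts made up 7.25% of all genes, and 18.3% of the 7927 genes without a control region at the start. Counted per hairpin, a start covered there but missed by the control was found in 11.3% of all genes for hairpin 1 and in 8.71% for hairpin 2. The reverse, a start covered in the control and by neither hairpin, was found in 1.17% of all genes; with no member start covered in the control, it could not occur among the 9. NEUROG2 and OLIG2 were already known to have more regions with the hairpins when the genes were chosen; of the other 7 genes, 3 had a hairpin-only start. None of the regions at these starts had an authors' p of at most 0.05.

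**Figure D1:**
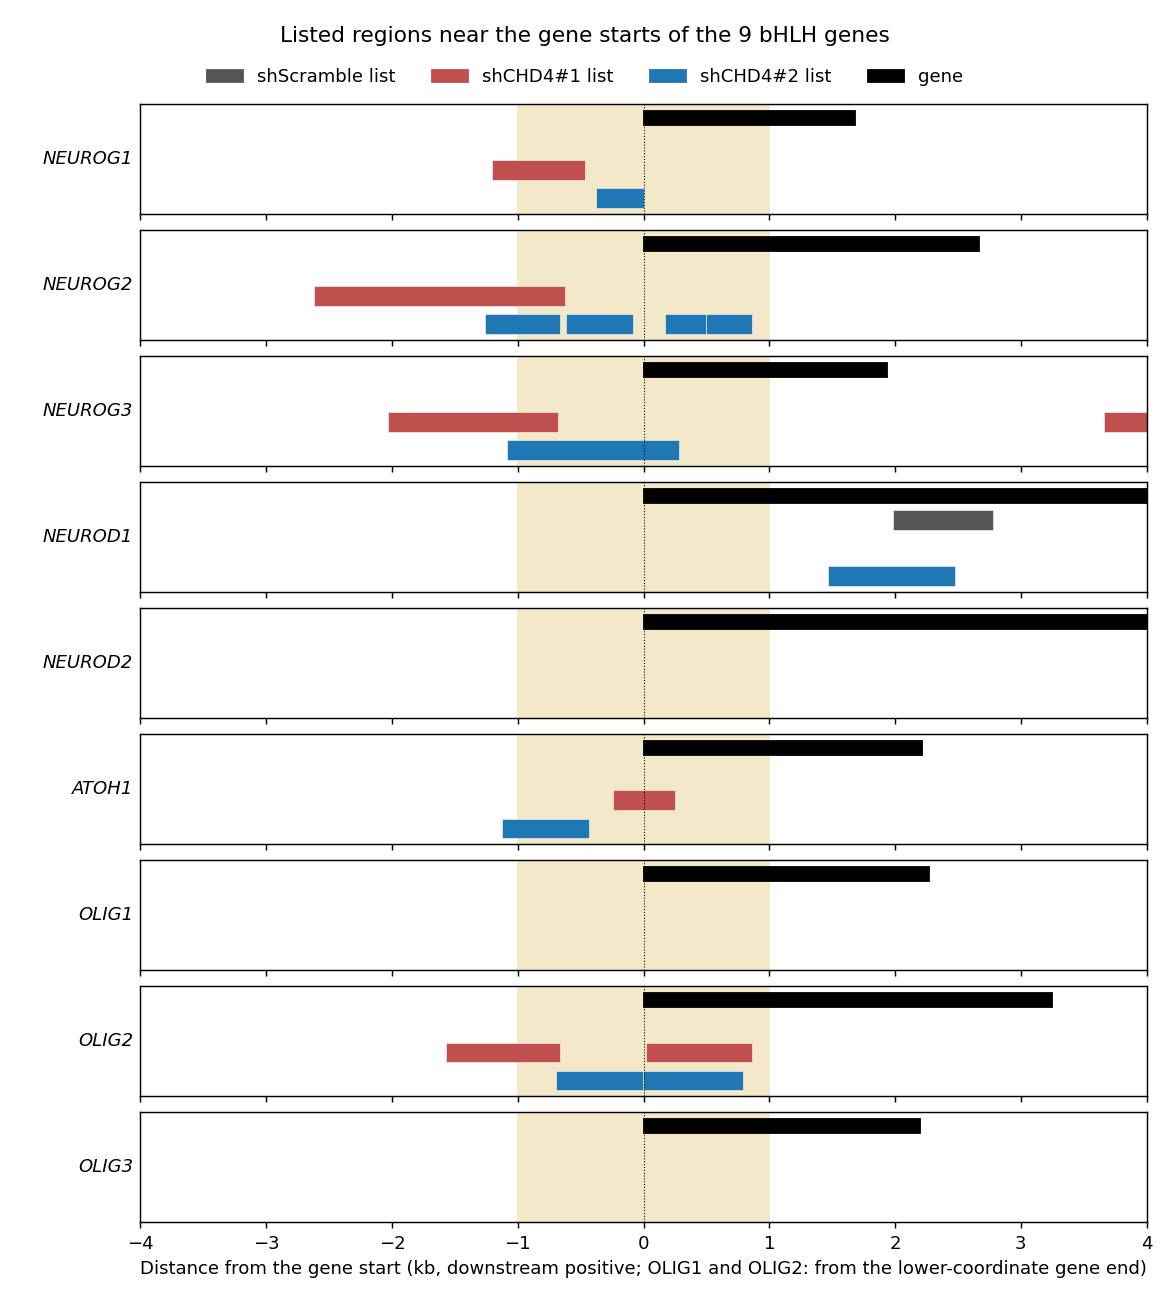
Regions of the 3 lists within 4 kb of the start of each gene, by distance from the start in kb; the shaded band is the 1 kb on either side that counts as covered. Regions of both hairpin lists and none of the shScramble list fall in the band at NEUROG1, NEUROG2, NEUROG3, ATOH1 and OLIG2, and no region of any list falls in it at the other 4 genes.

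The 250 bases before the start are shown for the 4 genes with a covered start and a RefSeq promoter sequence (GRCh38.p14), and for NEUROD2, whose start was covered in no list. Capitals mark the E-box motif CANNTG, which reads the same on both strands; each sequence runs 5′ to 3′ on the strand of the gene.
NEUROG1, minus strand, chr5:135535965-135536214: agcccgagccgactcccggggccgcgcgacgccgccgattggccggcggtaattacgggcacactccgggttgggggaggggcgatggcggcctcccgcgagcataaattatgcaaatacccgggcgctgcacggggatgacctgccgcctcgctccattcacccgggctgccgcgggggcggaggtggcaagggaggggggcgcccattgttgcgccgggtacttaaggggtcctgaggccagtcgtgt
NEUROG2, minus strand, chr4:112516181-112516430: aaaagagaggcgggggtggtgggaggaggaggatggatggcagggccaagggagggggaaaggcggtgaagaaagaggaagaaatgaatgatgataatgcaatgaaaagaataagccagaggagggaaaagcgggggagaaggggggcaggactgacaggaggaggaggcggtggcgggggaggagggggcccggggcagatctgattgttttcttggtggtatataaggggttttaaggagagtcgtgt
NEUROG3, minus strand, chr10:69573423-69573672: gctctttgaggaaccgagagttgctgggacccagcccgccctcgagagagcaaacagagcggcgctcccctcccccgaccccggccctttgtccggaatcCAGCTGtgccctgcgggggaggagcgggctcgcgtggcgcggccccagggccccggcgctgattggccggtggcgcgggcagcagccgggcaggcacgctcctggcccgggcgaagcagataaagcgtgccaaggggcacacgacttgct
ATOH1, plus strand, chr4:93828503-93828752: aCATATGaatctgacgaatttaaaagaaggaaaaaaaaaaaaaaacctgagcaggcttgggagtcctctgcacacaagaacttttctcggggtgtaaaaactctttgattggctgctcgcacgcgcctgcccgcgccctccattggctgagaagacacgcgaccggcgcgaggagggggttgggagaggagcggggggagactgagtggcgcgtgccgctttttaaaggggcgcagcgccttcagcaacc
NEUROD2, minus strand, chr17:39607921-39608170: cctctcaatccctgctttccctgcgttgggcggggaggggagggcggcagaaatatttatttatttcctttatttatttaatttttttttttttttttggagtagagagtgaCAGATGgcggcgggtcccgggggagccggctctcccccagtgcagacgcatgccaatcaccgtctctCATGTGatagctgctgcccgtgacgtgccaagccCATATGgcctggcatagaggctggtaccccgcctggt

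Hairpin 2 regions held all 250 of these bases at NEUROG1 and NEUROG3 and 170 of them at NEUROG2, but 0 at ATOH1. The hairpin 1 region held 242 at ATOH1, but hairpin 1 regions held 0 at NEUROG1, NEUROG2 and NEUROG3. Neither NEUROG1 nor NEUROG2 had a CANNTG in this stretch, while NEUROG3 and ATOH1 had 1 match each and NEUROD2 had 3. The motif was in 57.8% of the 15812 protein-coding promoters of the same length, and in 3 of the 7 member promoters matched. CCAAT, searched on both strands, was in 4 of the 7 against 34.4% of all promoters, with a match in NEUROG1, NEUROG3 and NEUROD2 and 2 in ATOH1. TATAA, on both strands, was in 3 of the 7 (NEUROG2, NEUROD1 and OLIG3) against 15.9% of all. GGAA, the core of the ETS site that the EWSR1::FLI1 fusion of this tumour binds, was in 6 of the 7, against 92.4% of all promoters. Matches of different motifs can overlap, and a match is a description of the letters only.

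Most of these promoters were rich in CpG. Over the whole RefSeq promoter window, with 50 bases past the start added, the ratio of observed to expected CpG was 0.985 at NEUROG1, 0.971 at ATOH1, 0.901 at NEUROD1, 0.820 at NEUROG3, 0.809 at NEUROD2, 0.614 at NEUROG2 and 0.463 at OLIG3. A ratio of at least 0.6 was found in 6 of these 7 and in 65.8% of all protein-coding promoters. Among the 2558 CpG-rich promoters not covered with shScramble, 32.8% were covered with both hairpins, against 8.02% of the 3705 promoters that were neither covered nor CpG-rich. Of the 6 CpG-rich member promoters, all without a shScramble region, 4 were covered with both hairpins. The share of covered starts thus differed with CpG content over all genes, and its part in the members' count was not tested.

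The neurogenins had a region at the start with each hairpin. NEUROG1, of cranial sensory neurons (chromosome 5, 135534282 to 135535964, minus strand), had a 380 bp hairpin 2 region across its start, at 135535961 to 135536340. The hairpin 1 region lay 467 bp upstream of the start, at 135536431 to 135537170, and the hairpins shared no base there, with a gap of 90 bp. The nearest shScramble region was 13967 bp away.

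Upstream of NEUROG1 lay a cluster of regions that reached to CXCL14, a chemokine gene. Each of the 3 lists had regions in it, though not at all the same places. ShScramble regions were listed at 135549931 to 135551460, 135551461 to 135553010, 135557981 to 135559630, 135559991 to 135561760, 135566821 to 135568360 and 135570001 to 135571340. Hairpin 1 regions were listed at 135551471 to 135553080, 135553231 to 135554350, 135558621 to 135559950, 135560531 to 135561630, 135565651 to 135566790, 135569501 to 135570810 and 135570841 to 135572030. Hairpin 2 regions were at 135551561 to 135552450, 135553761 to 135554430, 135559301 to 135560000, 135560541 to 135561430, 135565651 to 135566770, 135569251 to 135569920 and 135570901 to 135571610. The hairpin 1 region from 135553231 and the hairpin 2 region from 135553761 overlapped each other and no control region. The pair that begins at 135565651 had no overlapping control region either. Counted from the best, its hairpin 1 region ranked 11.6% of the way down the list, and its hairpin 2 region 19.9%. The control list had its own region just beyond this pair, from 135566821. Neither that region nor the control region at 135549931 to 135551460 overlapped a hairpin region.

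Both hairpins also had a region in SLC25A48, at 135579161 to 135580240 with hairpin 1 and at 135579191 to 135580650 with hairpin 2. On the far side of NEUROG1, shScramble regions lay at 135487821 to 135488780 and 135489251 to 135491160. A hairpin 2 region, at 135488451 to 135489320, overlapped both, and the hairpin 1 region, at 135485761 to 135487700, overlapped neither. In all, the window held 8 control, 10 hairpin 1 and 10 hairpin 2 regions.

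NEUROG2, of dorsal root ganglia and cortical progenitors (chromosome 4, 112513516 to 112516180, minus strand), had no shScramble region in its window, and the nearest was 67110 bp from the start. Hairpin 1 had 3 regions and hairpin 2 had 6. At the start, hairpin 2 regions lay at 112515321 to 112515680 and 112515681 to 112516010 inside the gene and at 112516261 to 112516800 and 112516841 to 112517440 upstream. The hairpin 1 region, at 112516801 to 112518800, shared 600 bp with the last of these. A further hairpin 2 region lay upstream at 112523681 to 112524090. Downstream of the gene, hairpin 1 regions lay at 112486011 to 112487050 and 112487141 to 112487880. A hairpin 2 region at 112487051 to 112487740 abutted the first and overlapped the second. Of 19974 protein-coding genes, 1 other had the same 3 region numbers.

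NEUROG3, the factor of endocrine progenitors in the pancreas (chromosome 10, 69571485 to 69573422, minus strand), had 1 region with shScramble and 2 with each hairpin. The hairpin 2 region at the start, 69573141 to 69574510, and the hairpin 1 region, 69574101 to 69575450, shared 410 bp. Downstream of the gene, a shScramble region at 69563661 to 69567790, a hairpin 1 region at 69567451 to 69569760 and a hairpin 2 region at 69567781 to 69568420 overlapped, so this place was present in all 3 lists. All 3 neurogenins therefore had hairpin regions, and no shScramble region, within 1 kb of the start.

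ATOH1, of inner ear hair cells, cerebellar granule cells and gut secretory cells (chromosome 4, 93828753 to 93830964, plus strand), had 2 regions in each list. Of each list's regions, 1 lay far from the start, at a place that all 3 lists held. The other shScramble region also lay far from the start, at a place that neither hairpin list held. With hairpin 1 a region of 490 bp spanned the start, at 93828511 to 93829000. With hairpin 2 a region lay 433 bp upstream, at 93827631 to 93828320, and 190 bp separated the hairpins' regions. No shScramble region lay within 1 kb of the start.

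OLIG2, the factor of motor neuron and oligodendrocyte progenitors (chromosome 21, 33025935 to 33029185), had no shScramble region in its window and 2 with each hairpin, all at the lower-coordinate end of the gene. Hairpin 2 listed 33025241 to 33025930 and 33025931 to 33026730, which abut close to the gene end. Hairpin 1 listed 33024361 to 33025270 and 33025951 to 33026800. The hairpins shared 810 bp, the most of the 5 genes. Regions of the hairpins shared bases at 3 of the 5 starts (NEUROG2, NEUROG3 and OLIG2), against 91.9% of the 1448 hairpin-only starts over all genes. In each hairpin list, 1 OLIG2 region also had the best rank among regions at the 5 starts. These were 33025241 to 33025930 for hairpin 2, 15.5% of the way down (authors' p of 0.0704, q of 0.748), and 33025951 to 33026800 for hairpin 1, 17.3% (p of 0.104, q of 0.869). These best-ranked regions shared no base. The other OLIG2 region ranked 33.9% with hairpin 2 and 40.1% with hairpin 1.

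OLIG1, a myelination factor (chromosome 21, 33070141 to 33072413), had no region within 1 kb of either end in any list. Its window overlaps that of OLIG2 and holds the same 4 regions at the OLIG2 gene end. Beyond them, hairpin 1 had a region at 33108981 to 33113330, which contained the hairpin 2 region at 33109771 to 33110270, and hairpin 2 had another at 33120451 to 33121690. The window held 0 control, 3 hairpin 1 and 4 hairpin 2 regions. OLIG3, of the dorsal neural tube (chromosome 6, 137492199 to 137494394, minus strand), had no region in any list, as had 1.84% of all gene windows. The nearest control region lay 76907 bp from its start, the nearest hairpin 1 region 64967 bp and the nearest hairpin 2 region 94727 bp.

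The NEUROD genes had no covered start in any list. NEUROD1, of neurons and insulin-producing cells (chromosome 2, 181668295 to 181680517, minus strand), had 4 control, 2 hairpin 1 and 3 hairpin 2 regions. It was the member with fewer regions with both hairpins, which 12.0% of all genes had. Inside the gene, 1987 bp from the start, shScramble listed 181677741 to 181678530, which overlapped a hairpin 2 region at 181678041 to 181679050 and no hairpin 1 region. Upstream, a shScramble region at 181714251 to 181715950 overlapped hairpin 2 regions at 181713321 to 181714690 and 181714691 to 181715660, and the hairpin 1 region nearby, at 181710541 to 181713200, lay outside it. In CERKL, shScramble listed 181620381 to 181622480 and 181622481 to 181624340, and hairpin 1 listed 181621371 to 181622420 in the first of them.

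NEUROD2, of cortical and hippocampal neurons (chromosome 17, 39603768 to 39607920, minus strand), lies among other genes and held 13 of the 28 shScramble regions counted over all windows. It had 12 regions with hairpin 1 and 15 with hairpin 2. The control region nearest to its start was 13751 bp away, the hairpin 1 region 6061 bp and the hairpin 2 region 5521 bp. Upstream of the gene, hairpin 1 listed 1 broad region of 8880 bp, 39613981 to 39622860, where hairpin 2 listed 39613441 to 39616130, 39616131 to 39617950, 39618281 to 39619280, 39619781 to 39621960 and 39621971 to 39622830. With shScramble, 39621671 to 39622890 was listed there. The broad region ranked 95.6% of the way down its list, the hairpin 2 regions 16.3% to 90.5% and the shScramble region 94.2%. Next to these regions, shScramble listed 39623391 to 39624270, hairpin 1 39622961 to 39624310 and hairpin 2 39622981 to 39624320.

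Further regions of the NEUROD2 window lay in PPP1R1B, the gene of the dopamine signalling protein DARPP-32, and in STARD3. ShScramble regions were at 39627791 to 39630520, 39630921 to 39632330, 39632861 to 39635850, 39636351 to 39637350, 39638801 to 39640180, 39652201 to 39653320 and 39653641 to 39654520. Hairpin 1 regions were at 39629971 to 39637270, 39643501 to 39645870, 39651211 to 39653460 and 39654571 to 39656010. Hairpin 2 regions were at 39629431 to 39636340, 39636571 to 39637550, 39637551 to 39638220 and 39653651 to 39654550. The hairpin 1 region in PPP1R1B was 7300 bp wide and the hairpin 2 region 6910 bp, where the control list had several narrower ones. These 2 broad regions ranked near the bottom of their lists, 95.6% and 95.8% of the way down. The control regions there ranked 18.3% to 94.2%.

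Downstream of NEUROD2, shScramble listed 39592261 to 39592970 and 39592971 to 39593660, and hairpin 1 listed none there. Hairpin 2 listed 39591561 to 39592230, which overlapped neither, and 39592231 to 39592820, which overlapped the first. All 3 lists held the place at 39575391 to 39577090 (shScramble), with hairpin 1 regions at 39575711 to 39576890 and 39576991 to 39578240 and a hairpin 2 region at 39575951 to 39576870. Both hairpins had a region at 39573651 to 39574680 (hairpin 1) and 39573841 to 39574340 (hairpin 2), where shScramble had none. In CDK12, a transcriptional kinase gene, hairpin 1 listed 39556391 to 39557150, 39562961 to 39564930 and 39565671 to 39567730. The middle one overlapped shScramble (39563851 to 39565030) and hairpin 2 (39564161 to 39565170).

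**Figure D2:**
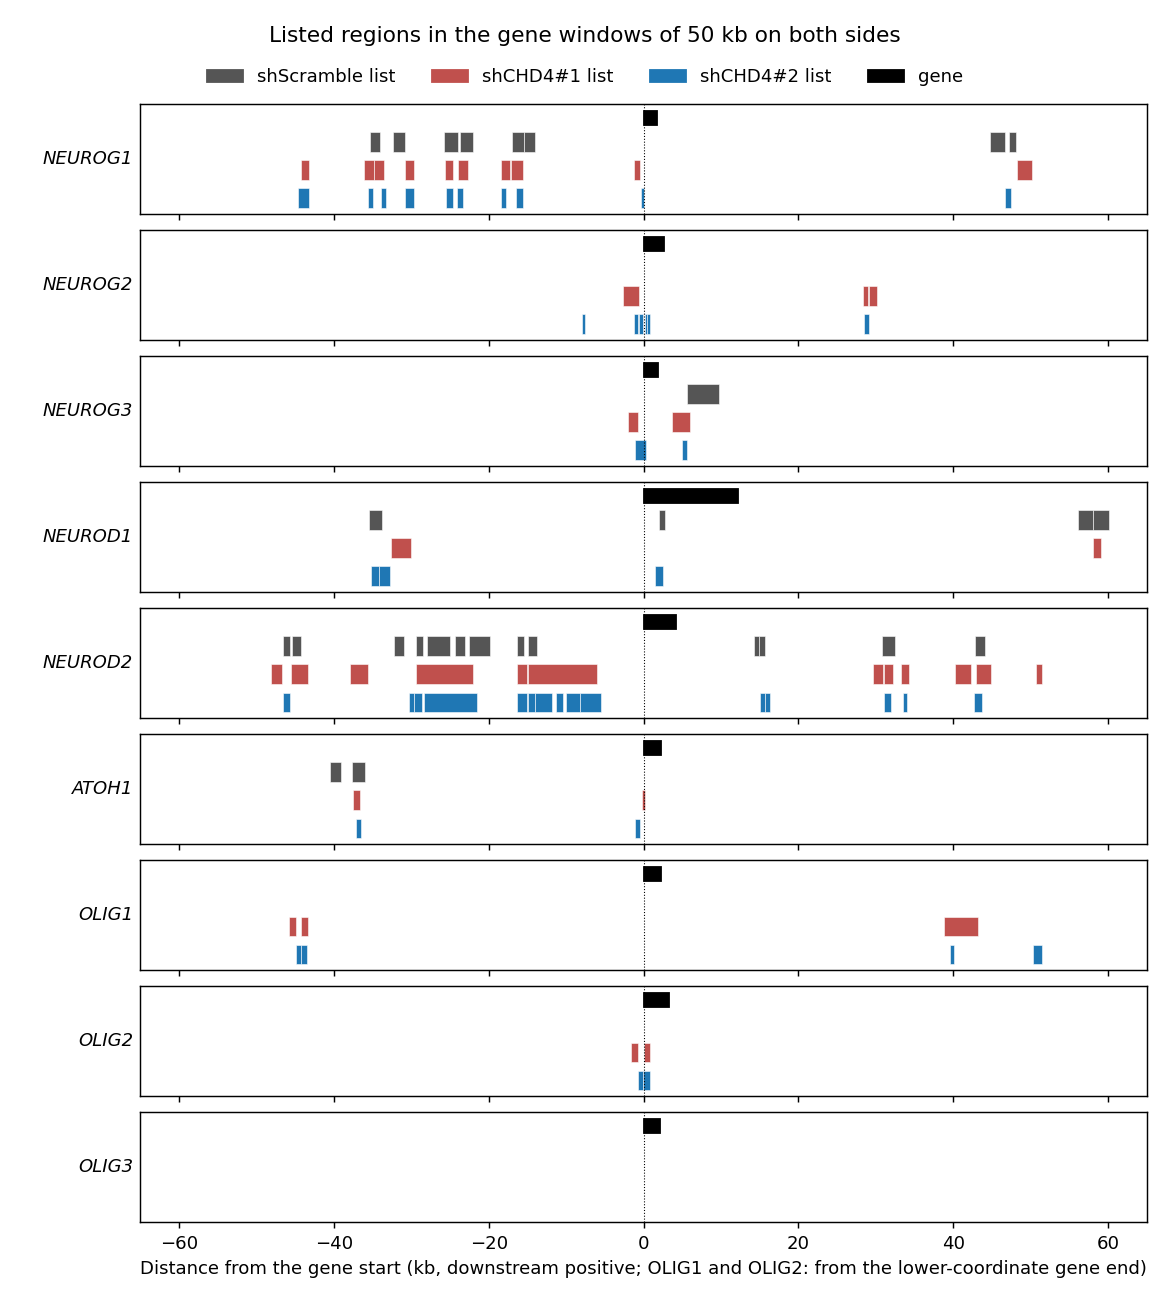
All listed regions in the window of each gene, by distance from the gene start in kb, with upstream negative; for OLIG1 and OLIG2 the distance is from the lower-coordinate gene end. NEUROD2 and NEUROG1 hold most of the shScramble regions, at a distance from the start, and the windows of NEUROG2, OLIG1, OLIG2 and OLIG3 hold none.

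Counted over the windows, with each region counted once, the control list had 28 regions, the hairpin 1 list 34 and the hairpin 2 list 42. The ratio to shScramble was 1.21 for hairpin 1 (log2 ratio 0.28) and 1.50 for hairpin 2 (log2 ratio 0.58). The whole lists held 85775, 122869 and 83241 regions on chromosomes 1 to 22 and X, ratios of 1.43 and 0.970. The log2 ratios of the whole lists were 0.52 and -0.04. The ratio at these genes was thus below that of the whole list for hairpin 1 and above it for hairpin 2. Without the NEUROD2 window the numbers were 15, 22 and 27 and the log2 ratios 0.55 and 0.85, so that for hairpin 1 the order turned and the ratio was just above that of the whole list. All these totals include NEUROG2 and OLIG2, known to have more regions with the hairpins when the genes were chosen. In the order shScramble, hairpin 1, hairpin 2, NEUROG2 held 0, 3 and 6 regions and OLIG2 0, 2 and 2. Ratios without these genes were not computed. When each list was limited to its best 80000 regions, the log2 ratio of hairpin 1 turned to -0.12, and that of hairpin 2 was 0.75.

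Against the control, 5 of the 9 windows held more regions with hairpin 1 (71.1% of all genes) and 6 held more with hairpin 2 (38.3% of all). Fewer regions were held by 2 windows with hairpin 1 (14.6% of all) and by 1 with hairpin 2 (41.6% of all). Windows with more regions in each hairpin list were those of NEUROG1, NEUROG2, NEUROG3, OLIG1 and OLIG2, 5 of the 9, against 35.3% of all genes. For NEUROG2 and OLIG2 this was known when the genes were chosen, and of the other 7 genes 3 had more in each. Of these 3, OLIG1 has a window that shares 4 regions with that of OLIG2. With each list limited to its best 80000 regions, NEUROG1 and NEUROG3 had equal numbers with hairpin 1 and shScramble. NEUROG2, OLIG1 and OLIG2 still had more in each hairpin list. The share over all genes was not computed at that setting. The windows were sparse: their median was 1 control, 2 hairpin 1 and 3 hairpin 2 regions, against 7, 10 and 7 over all genes, whose windows were longer (median 124.2 kb against 102.3 kb).

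**Figure D3:**
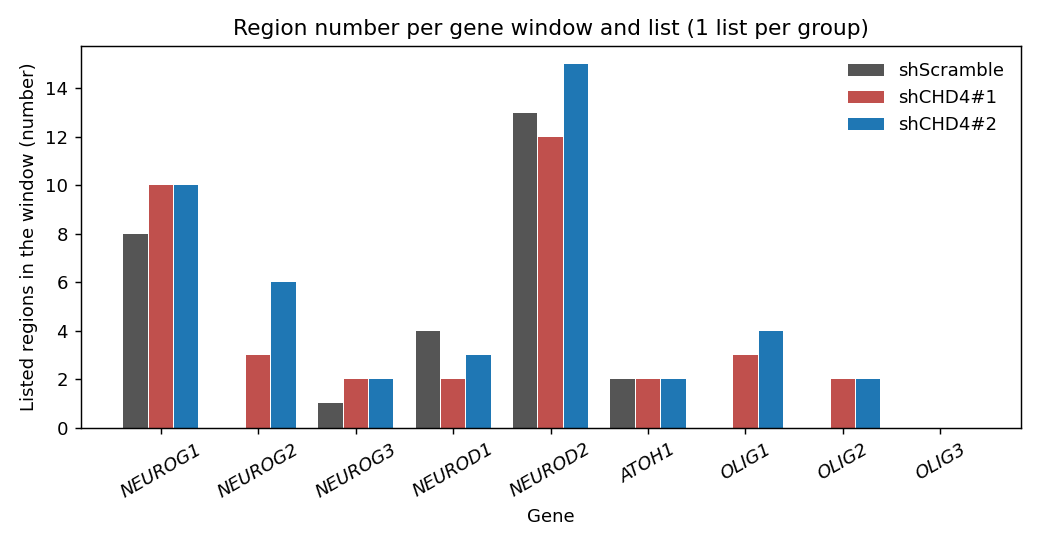
Number of listed regions in the window of each gene, by list; each bar is 1 list, so there is no error bar. NEUROG2, OLIG1 and OLIG2 have 0 regions with shScramble and 2 to 6 with a hairpin, and NEUROD1 has fewer with both.

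Merging the overlapping regions of the 3 lists gave 51 places in the windows. Of these, 10 were listed with each hairpin and missed by the control, 19.6% (95% Wilson interval 11.0 to 32.5, counting error only), against 10.0% of all 130785 merged regions. The windows of NEUROG2 and OLIG2, known to have more regions with the hairpins when the genes were chosen, held 2 of these places each. The share without these genes was not computed, so the interval does not show an excess apart from that choice. Places in shScramble only numbered 6, 11.8% (5.51 to 23.4), against 10.5%. When an overlap had to cover at least 50% of the shorter region, 9 places were gained and 10 lost, so that the excess of gains turned. Places in all 3 lists made up 19.6% against 33.2%, those in hairpin 1 only 17.6% against 29.0%, and those in hairpin 2 only 17.6% against 5.44%. Places missing from hairpin 1 alone numbered 5 of 51, against 2.70% of all, and places missing from hairpin 2 alone 2 of 51, against 9.11%. The intervals treat neighbouring regions as independent, which they need not be.

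Of the 10 places gained with both hairpins, 4 lay within 1 kb of a member start (2 at OLIG2, 1 at NEUROG2 and 1 at NEUROG3). So did 2 of the 9 in hairpin 1 only and 5 of the 9 in hairpin 2 only. NEUROG2 and OLIG2 were known to have more regions with the hairpins when the genes were chosen. Most of the 5 places in hairpin 2 only lay at NEUROG2. The same shares over all merged regions were not computed, so these counts have no background to be read against. No place that holds a control region lay within 1 kb of a member start. Places in the control list alone could not, since no member start was covered with shScramble.

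The regions at the starts were not among the best-ranked of either hairpin list. By the authors' p, the 6 hairpin 1 regions ranked 17.3% to 61.9% of the way down their list, and the 9 hairpin 2 regions 15.5% to 84.6%. Their widths were 490 to 2000 bp with hairpin 1 and 330 to 1370 bp with hairpin 2. Over all regions in the windows the median rank was 52.7% in the control list, 46.9% for hairpin 1 and 56.5% for hairpin 2. An authors' p of at most 0.05 was reached by 1 of 28, 2 of 34 and 1 of 42 regions, or 3.57%, 5.88% and 2.38%, against 12.6%, 11.9% and 13.1% of the whole lists. No region in the windows had a q of at most 0.05, which 1.53%, 1.47% and 1.64% of the whole lists had. Hairpin 2 regions were the narrowest, with a median of 830 bp in the windows against 1040 bp in its list; with hairpin 1 these were 1280 and 1390 bp and with shScramble 1470 and 1450 bp.

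**Figure D4:**
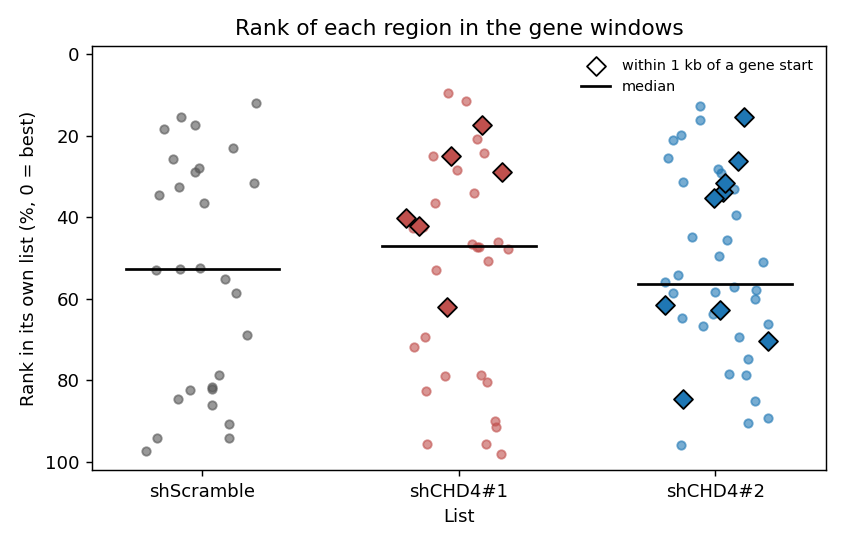
Rank of each region in the gene windows within its own list, in percent with 0 the best; diamonds are regions within 1 kb of a gene start and bars are medians. The diamonds lie between 15.5% and 84.6%, and the shScramble list has none.

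The 28 related factors were other bHLH factors, not all of them neural, with E proteins, HES and HEY repressors and ID proteins. Of their starts, 16 were covered with shScramble, and all 16 were covered with both hairpins too. Hairpin-only starts were found at 3 of the 28, the Notch targets HES5, HEYL and HEY2, which is 10.7% of the list. Their windows held 14, 27 and 25 regions at HES5, 8, 18 and 18 at HEYL, and 4, 8 and 6 at HEY2, in the order shScramble, hairpin 1, hairpin 2. NEUROD6, a neuronal differentiation factor, had a covered start with hairpin 2 only (9, 11 and 7 regions). The E protein genes TCF3 and TCF12 were covered in every list, and TCF4 in none. All 4 ID genes were covered in every list.

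The 9 PAX genes, a family of developmental factors of the same number, had 2 covered starts in the control list, 3 with hairpin 1 and 2 with hairpin 2. None of them was a hairpin-only start. The PAX windows held a median of 7, 14 and 11 regions, but they were longer, with a median of 162.9 kb against 102.3 kb for the bHLH genes.

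**Figure D5:**
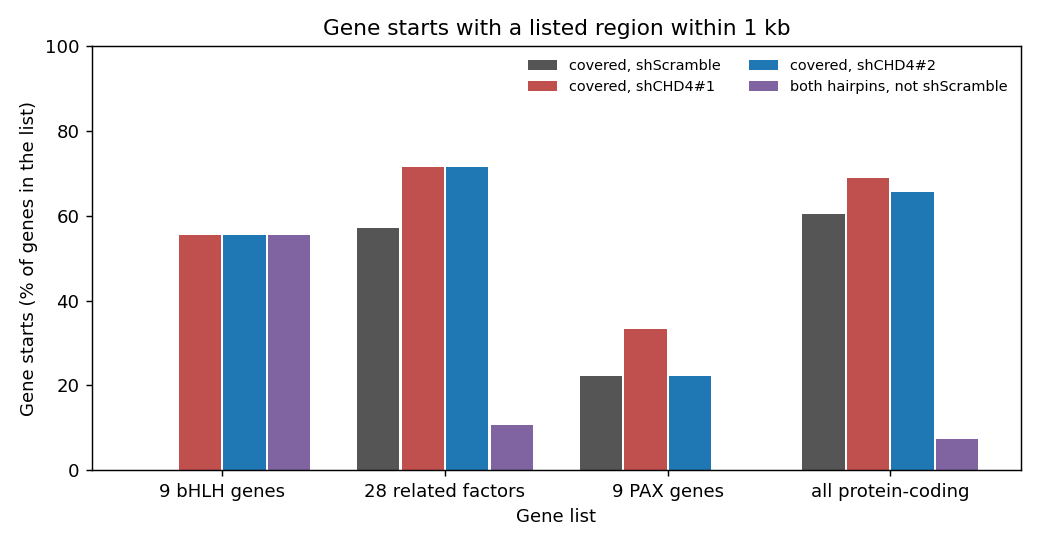
Share of genes with a region within 1 kb of the start, in percent of each gene list, for the 3 region lists and for hairpin-only starts. The 9 bHLH genes have 0% with shScramble and 55.6% with each hairpin, the 28 related factors 57.1% and 71.4%, and all protein-coding genes 60.3% with shScramble.

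Against the label of the cells, 6 genes known from Ewing sarcoma were read (NR0B1, NKX2-2, STEAP1, CCND1, CD99 and BCL11B). Of their starts, 5 of 6 were covered with shScramble and 6 of 6 with each hairpin. Over all genes the shares were 60.3% with shScramble, 68.8% with hairpin 1 and 65.5% with hairpin 2. NKX2-2 was the gene not covered with shScramble, so its start was hairpin-only. CCND1 had no entry in the promoter table, so either gene end was used for it. Of 6 markers of blood, endothelium and epithelium, 3 (EPCAM, CD3E and KRT18) had a covered gene end in all 3 lists. PECAM1 had one with shScramble only and CDH5 with both hairpins only. Either gene end was used for these named markers, which had no entry in the promoter table. The 1 marker with a start site had a covered start in no list. A region near either gene end thus did not by itself mark the cell type, and for starts too few markers could be placed. Regions show accessibility and not expression, and whether any of the 9 genes was transcribed was not measured here.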

How the data were processed

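The values are regions called from ATAC-seq of SK-N-MC cells, 1 list per group. The submitters' processing notes name Trimmomatic 0.36 and FastQC 0.11.7, with BWA, SAMtools 1.9 and also deepTools 3.2.1, and as builds GRCh38 and dm6. Which peak caller made the lists, with what settings, and whether cut sites were shifted or the spike-in was used is not given in the sources used here. The deposited file names hold the word ChIPR, and a program of that name merges replicate lists. Each deposited region has 2 scores from the authors, 1 of them with no stated unit and sometimes negative. The p-value and q-value are the authors' too, and served here to order and filter each list. Depth per sample is unknown; where a library is deeper or the calling is looser, weak regions are listed that another list lacks.

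Starts were made 1-based, and regions on chromosomes 1 to 22 and X were kept. Gene positions came from RefSeq (GRCh38.p14), and start sites from its promoter table, with either gene end used where a gene had no entry; the table has no exons. All 9 genes matched by symbol and 7 had a promoter sequence. A window was the gene with 50 kb on both sides, and 1 shared bp counted as overlap. Window numbers and merging were checked on simulated regions. All 9 genes are named; related factors are named where the covered start differed between lists, and the E protein and ID genes were added after their values were seen. Some values that this rule would name, and some regions in the windows, are not reported here. The genes and lists were chosen with earlier results of these data known. The analysis used Python 3.11.15 and pandas 2.3.3. Alternatives were stricter regions, other windows, a larger overlap and other distances to the start.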

Additional observations from a re-analysis of the deposited data

How the results depend on the processing

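With only regions whose authors' p was 0.05 or less, the windows held 1, 2 and 1 regions with shScramble, hairpin 1 and hairpin 2 (log2 ratio of hairpin 1 1.00); 0 places were gained with both, 1 was lost with both, 0 were in all 3 lists, and the starts covered were 0 with hairpin 1, 0 with hairpin 2 and 0 with both. With the best 20000 regions of each list the region numbers were 5, 2 and 5 (log2 ratio of hairpin 1 -1.32), with 1 place gained, 3 lost and 0 in all 3, and 0, 1 and 0 starts covered with hairpin 1, hairpin 2 and both. With the best 80000, the log2 ratio of hairpin 1 was -0.12, 7 places were gained and 6 lost, and 6 were in all 3 lists, while 5 starts were still hairpin-only (covered by each hairpin, missed by the control). With 5 kb on both sides, the region numbers were 2, 7 and 11 (log2 ratios 1.81 and 2.46), with 4 places gained, 0 lost and 1 in all 3. With 100 kb they were 61, 85 and 71, with 15 places gained, 14 lost and 25 in all 3; NEUROG3 then had -1 region with hairpin 2 relative to shScramble and NEUROD2 had 3 more with hairpin 1. With at least 50% of the shorter region shared, 9 places were gained and 10 lost with both, against 10 and 6. Within 500 bp of the start, 3 starts were covered with hairpin 1 and 3 were hairpin-only; within 2 kb, 1 was covered with shScramble, that of NEUROD1. Leaving out regions over 20 kb and those whose authors' value was negative changed none of these values. Fewer regions enter the stricter settings by construction, and the cause of the turned ratios was not tested. Shares over all genes and over all merged regions were not computed at these settings. The counts of starts and places given here therefore have no background to be read against.

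No paired analysis was possible because each group has 1 list and no list carries a replicate number, and for the same reason no replicate was left out in turn. Depth is unknown, so no absence from a list shows that a place was closed.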
